A study of Penicillium oxalicum with 6 samples.

Results

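Amylase genes and their regulator were followed across 6 RNA sequencing libraries of the filamentous fungus Penicillium oxalicum. The group comprised 4 of the 9284 genes listed in at least 1 library, chosen by identifier for their role: the amylase genes POX01356, POX09352 and POX02412, and POX03890, taken here as the gene of the amylase regulator AmyR. These roles come from published work on the fungus. The deposited tables pair no identifier with a name, so the roles could not be checked here. All 4 genes were listed in all 6 libraries and passed the filter on low counts, and none had a fractional count, so none of their reads was split between similar sequences.

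The comparison was between the strain MuPOX00158, in which POX00158 is deleted, and the strain labelled Ku70, with 3 libraries each. The stated purpose of the series was to learn how POX00158, described as a phosphokinase gene, affects the transcripts of cellulase and xylanase genes. Both strains were grown from spores taken from potato-dextrose agar after 6 d at 28 °C, and about 1 g of hyphae was then shaken for 24 h at 180 rpm and 28 °C in 100 mL of medium with 1% Avicel, a microcrystalline cellulose. The labels name cellulose, and no starch, in the liquid medium of both groups. The Ku70 protein acts in DNA end joining, and its loss is widely used in fungi to ease gene targeting. Whether MuPOX00158 also carries the Ku70 mutation, and how many transformants each strain stands for, is not given in the sources used here. Nothing in the labels says whether separate cultures stand behind the libraries of a strain. The p-values then reflect only how far these libraries differ, and that spread may be technical.

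Amylases break starch into maltose, longer oligosaccharides and glucose, and fungi secrete them when starch or its breakdown products are at hand. In Aspergillus species AmyR is a zinc cluster transcription factor that switches these genes on in response to such products. In Penicillium oxalicum deletion of AmyR is also known to raise cellulase production.

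Libraries held 2983815 to 3259601 expected counts over 8677 to 8750 genes. As the labels call for, the deleted gene POX00158 was covered by 4, 8 and 9 reads in MuPOX00158 and by 569 to 1067 in Ku70. On the second principal component of log2 expression, which held 9.15% of the variance, replicate 1 of Ku70 lay away from the rest of its strain. The developmental regulator gene POX08415 averaged 248 ± 51.8 CPM in Ku70 against 178.6 ± 28.9 CPM in the deletion strain (edgeR adjusted p = 0.105 for a log2 fold change of -0.47; SD, n = 3 each). CPM are counts per 1000000 reads of a library scaled by TMM factors. In bulk mycelium, fewer cells expressing a gene and less RNA per cell cannot be told apart.

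**Figure D1:**
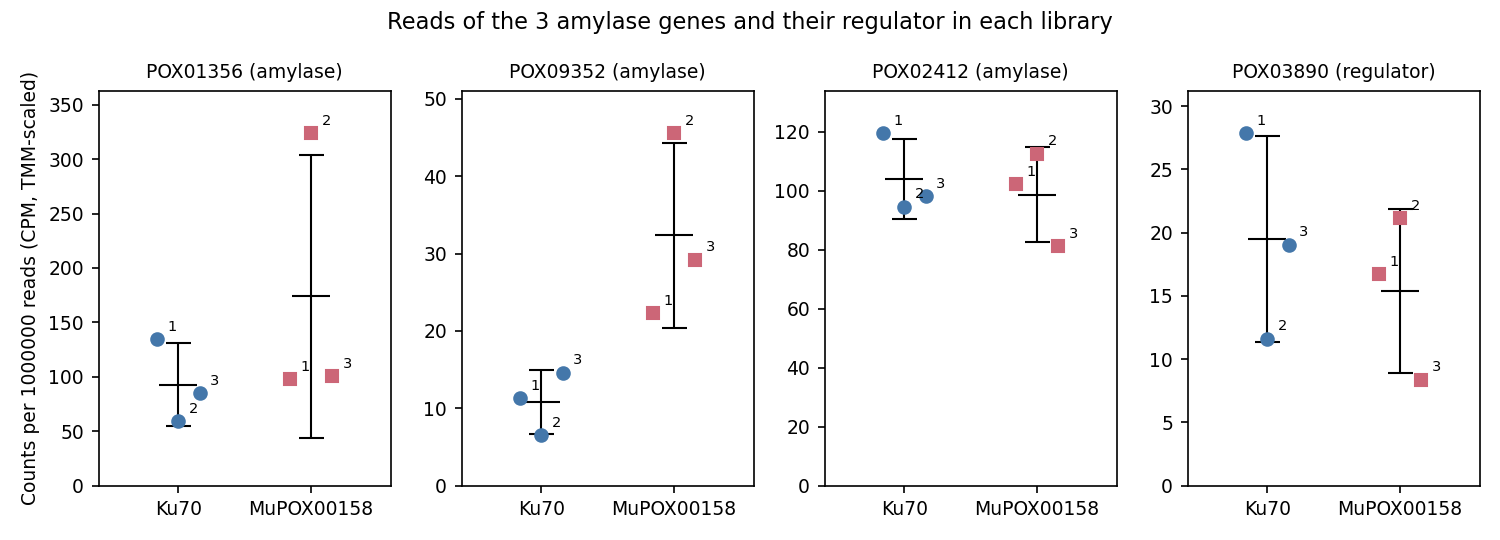
Counts per 1000000 reads (CPM, TMM-scaled, linear axis from 0) of the 3 amylase genes and the regulator gene in each library of Ku70 (circles) and MuPOX00158 (squares), numbered by replicate, with the mean and SD of 3 libraries as bars. For POX09352 the MuPOX00158 libraries, at 22.3 to 45.6 CPM, sit above the Ku70 libraries, at 6.49 to 14.6 CPM, whereas for the other genes the strains overlap.

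Per unit of gene length, the amylase genes fell into a pair of middle to upper level and a weak member, and the weak member was the one that rose. FPKM, the authors' read count scaled by gene length and library size, serves for levels between genes. In Ku70 the mean FPKM was 56.9 ± 9.59 for POX02412, 49.6 ± 22.2 for POX01356, 11.1 ± 5.04 for POX03890 and 5.94 ± 2.46 for POX09352 (SD, n = 3 each). The amylase gene POX09352 thus had the lowest level of the group in Ku70, below the regulator gene POX03890 in all 3 libraries. The ranges of this last pair overlapped, however (3.3 to 8.17 against 6.14 to 16.2 FPKM). In MuPOX00158 the order was POX01356 at 96.1 ± 69.8, POX02412 at 56.6 ± 7.86, POX09352 at 18.5 ± 6.53 and POX03890 at 9.09 ± 3.64 FPKM (SD, n = 3 each). There POX09352 exceeded POX03890 in all 3 libraries, with ranges that did not overlap but came close (12.66 to 25.53 against 5.13 to 12.28 FPKM). The leading pair, POX01356 and POX02412, overlapped in both strains, so the order between them is not set by these libraries. Among listed genes, POX02412 had a higher FPKM than 61.9 to 73.7% of genes in every library, a middle to upper level, while POX09352 exceeded only 12.3 to 20.2% in Ku70 and 26.5 to 44.2% in MuPOX00158. POX03890 exceeded 14.6 to 32.7% of listed genes over the 6 libraries. POX01356 exceeded 52.5 to 75.7% in Ku70 and 66.6 to 89.2% in MuPOX00158, the highest value being that of replicate 2.

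Of the 4 genes, 1 rose in MuPOX00158, none fell and 3 did not pass the test. Over all 7757 genes tested, 37.2% passed in either direction and 18.6% rose (edgeR quasi-likelihood test with Benjamini-Hochberg adjustment over all of them, adjusted p below 0.05). With 4 genes, a count of 1 is not set apart from these shares. The median log2 fold change was 0.41 over the 4 genes and 0.91 over the 3 amylase genes, against 0.00029 over all genes tested. The medians rest on few genes, and that of the amylase genes is the value of POX01356, which did not pass.

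POX09352 was the amylase gene that rose. It had 35, 19 and 46 reads in Ku70 replicates 1, 2 and 3, and 68, 149 and 94 reads in MuPOX00158 replicates 1, 2 and 3. Scaled, these were 11.3, 6.49 and 14.6 CPM in Ku70 and 22.3, 45.6 and 29.2 CPM in MuPOX00158. Every MuPOX00158 library lay above every Ku70 library, a separation that 27.5% of all tested genes showed in this direction, 24.2% in the other and 51.7% in either. The mean rose from 10.8 ± 4.08 CPM to 32.4 ± 11.98 CPM (SD over 3 libraries), a fold change of 2.98 with a 95% interval of 1.67 to 5.33 (log2 fold change 1.57, SE 0.36, edgeR adjusted p = 0.0111). Among tested genes 6.56% had a larger log2 fold change. The reads were few. The highest Ku70 count, 46, had an exact 95% Poisson interval of 33.7 to 61.4 reads, and the lowest MuPOX00158 count, 68, one of 52.8 to 86.2 reads. Such intervals cover counting error only. Without any single library the log2 fold change stayed between 1.25 and 1.83 and the edgeR adjusted p between 0.0140 and 0.0342, so no library decides the call.

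POX01356 had the highest mean of the group in MuPOX00158, but 1 library held most of it. It had 415, 173 and 267 reads in Ku70 replicates 1, 2 and 3, and 298, 1059 and 324 reads in MuPOX00158 replicates 1, 2 and 3, which is 134.6, 59.1 and 84.8 CPM against 97.6, 324 and 101 CPM. MuPOX00158 replicates 1 and 3 lay within the Ku70 range and replicate 2 lay far above it. The exact 95% Poisson interval of its 1059 reads, 996 to 1125, was far from those of the other MuPOX00158 libraries, 265 to 334 and 290 to 361, so counting error does not cover the gap. The spread of this gene among the MuPOX00158 libraries, 1.72 on the log2 scale from lowest to highest, was wider than that of 98.3% of tested genes. The means were 92.8 ± 38.4 CPM for Ku70 and 174 ± 129.9 CPM for MuPOX00158 (SD over 3 libraries), and the difference did not pass (log2 fold change 0.91, SE 0.51, 95% interval -0.27 to 2.08, edgeR adjusted p = 0.197). Leaving that library out gave a log2 fold change of 0.10 (edgeR adjusted p = 0.837). MuPOX00158 replicate 2 also had the highest sums of its strain for the other enzyme groups, 13687 CPM of cellulase reads against 7797 and 10061 CPM in replicates 1 and 3, and their part in the value of POX01356 was not tested.

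POX02412 was the steadiest amylase gene. Its reads were 369, 277 and 309 in Ku70 replicates 1, 2 and 3 and 312, 368 and 261 in MuPOX00158 replicates 1, 2 and 3. These corresponded to 119.6, 94.6 and 98.1 CPM in Ku70 and 102, 113 and 81.1 CPM in MuPOX00158. The strains overlapped over most of their range. Means were 104 ± 13.6 and 98.6 ± 16.1 CPM (SD over 3 libraries), and the log2 fold change of -0.08 (SE 0.17) had an edgeR adjusted p of 0.751. The 95% interval of the fold change ran from 0.717 to 1.25. The test did not call a change, and fold changes within that interval remain compatible with these libraries.

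The regulator gene POX03890 was weakly expressed and varied as much within a strain as between strains. It had 86, 34 and 60 reads in Ku70 replicates 1, 2 and 3 and 51, 69 and 27 reads in MuPOX00158 replicates 1, 2 and 3, or 27.9, 11.6 and 19.0 CPM against 16.7, 21.1 and 8.39 CPM. The lowest and the highest values of the 6 came from different strains, but the ranges overlapped widely. Means were 19.5 ± 8.15 CPM for Ku70 and 15.4 ± 6.46 CPM for MuPOX00158 (SD over 3 libraries), and the log2 fold change of -0.34 (SE 0.41) had an edgeR adjusted p of 0.541. The 95% interval of the fold change, 0.410 to 1.52, lay on both sides of 1. From lowest to highest, the spread within Ku70 was 1.22 on the log2 scale, wider than that of 89.1% of tested genes, and within MuPOX00158 it was 1.27, wider than 95.9%.

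**Figure D2:**
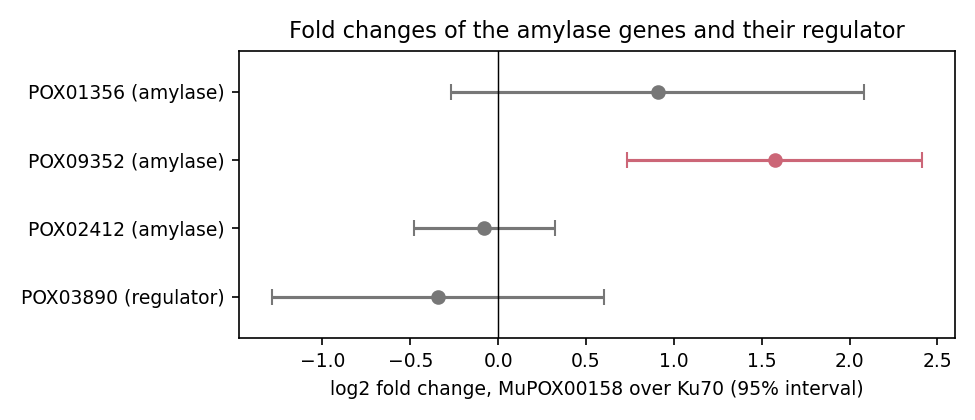
Log2 fold change (MuPOX00158 over Ku70) of the 3 amylase genes and the regulator gene, as points with 95% intervals from the edgeR fit on 3 libraries per strain. The interval of POX09352, 0.74 to 2.41, lies above 0, and those of the other 3 genes include 0.

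Within a strain, the 4 genes tended to be high or low in the same libraries. In MuPOX00158 replicate 2 all 4 genes had their highest CPM of the strain, and their log2 CPM lay above the strain mean by 1.14 (POX01356), 0.55 (POX09352), 0.20 (POX02412) and 0.53 (POX03890). In Ku70 replicate 2 all 4 had their lowest CPM of the strain, at -0.56, -0.62, -0.13 and -0.63 from the strain mean in the same order. All 4 also lay above the strain mean in Ku70 replicate 1 and below it in MuPOX00158 replicate 3, while replicates MuPOX00158 1 and Ku70 3 were split. Over all tested genes, 46.5 to 55.3% lay above the strain mean in any one library. This pattern was noticed after the values were seen, and with 3 libraries per strain it is a description.

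**Figure D3:**
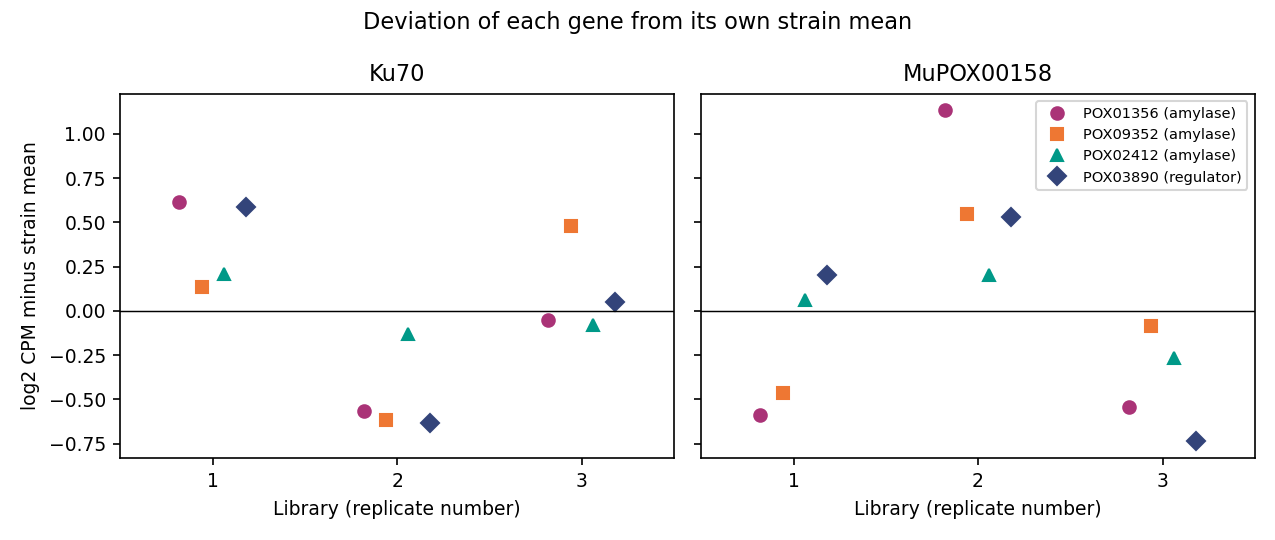
Log2 CPM of each gene minus its mean over the 3 libraries of its own strain, by library, for Ku70 (left) and MuPOX00158 (right). All 4 genes lie above 0 in Ku70 replicate 1 and MuPOX00158 replicate 2, and below 0 in Ku70 replicate 2 and MuPOX00158 replicate 3.

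The sample titles end in a letter, F, S or T, that is shared between strains. Libraries of the same letter deviated together only weakly over the tested genes (correlations of 0.15, 0.22 and 0.16 for F, S and T). Differences within letters were far apart for POX01356, POX09352 and POX03890, and closer to each other for POX02412. For POX01356 the log2 CPM difference, MuPOX00158 minus Ku70, was -0.46 for letter F, 2.44 for S and 0.25 for T. For POX09352 it was 0.93, 2.70 and 0.97, a higher level in MuPOX00158 for all 3 letters. For POX02412 it was -0.23, 0.25 and -0.27, and for POX03890 it was -0.72, 0.83 and -1.12. Letter S gave the largest value for every member, since it joins the high MuPOX00158 library with the low Ku70 library. With the letter as a block, the log2 fold changes were 1.54 for POX09352 (edgeR adjusted p = 0.0248) and 0.71 for POX01356 (adjusted p = 0.348).

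Ratios between members within a library do not depend on library scaling and show whether the genes moved by different amounts. Among the 6 pairs, 3 had no overlap between strains. Of single genes, 51.7% had none over all genes tested, and the share over all pairs of genes was not computed. The log2 ratio of POX09352 to POX03890 was -1.28, -0.82 and -0.38 in Ku70 replicates 1, 2 and 3, and 0.41, 1.11 and 1.78 in MuPOX00158 replicates 1, 2 and 3. Reads of this amylase gene were thus fewer than those of the regulator gene in every Ku70 library and more in every MuPOX00158 library, a mean difference of 1.93 on the log2 scale. The smallest gaps were 46 against 60 reads in Ku70 replicate 3 and 68 against 51 reads in MuPOX00158 replicate 1. Counting errors of these ratios were 0.28 and 0.27 on the log2 scale, and 0.41 in Ku70 replicate 2, so counting error limits the order within single libraries. Relative to POX02412, POX09352 had mean log2 ratios of -3.32 ± 0.551 in Ku70 and -1.65 ± 0.472 in the deletion strain (SD over 3 libraries), a difference of 1.66. The third pair was POX01356 over POX03890, with a difference of 1.10. Each of these 3 gave a two-sided exact permutation p of 0.1, the smallest that 3 against 3 libraries allow, and 0.2 after adjustment over the 6 pairs, so none could pass 0.05. In the other pairs the strains overlapped: POX01356 over POX09352 differed by -0.83 (p = 0.2), POX01356 over POX02412 by 0.83 (p = 0.2) and POX02412 over POX03890 by 0.27 (p = 0.5; two-sided exact permutation, adjusted p = 0.24, 0.24 and 0.5).

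The ratio of POX01356 to POX03890 was close to constant among the Ku70 libraries and not among those of MuPOX00158. In Ku70 the log2 ratio was 2.26, 2.33 and 2.14 in replicates 1, 2 and 3, an SD of 0.0941, although POX01356 alone varied 2.51-fold and POX03890 alone 2.64-fold between these libraries before TMM scaling. The counting error of a single ratio was 0.17 to 0.27 on the log2 scale. An SD this low is below what counting alone gives, so its tightness beyond that error carries no information. Both genes had most reads in replicate 1 and fewest in replicate 2 of Ku70. Their exact Poisson intervals there were 376 to 457 against 148 to 201 reads for POX01356, and 68.8 to 106 against 23.5 to 47.5 reads for POX03890. In these Ku70 libraries the genes thus moved together by more than counting error. In MuPOX00158 the ratio was 2.54, 3.93 and 3.56, an SD of 0.723, beyond counting errors of 0.18 to 0.29. This pair was singled out from the 6 after its values were seen, and the difference in spread was not tested.

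Together the 3 amylase genes took a small share of the reads in both strains, with no difference beyond the spread. They held 0.0267, 0.0146 and 0.0197% of reads in Ku70 replicates 1, 2 and 3, and 0.0227, 0.0483 and 0.0222% in MuPOX00158 replicates 1, 2 and 3. Only MuPOX00158 replicate 2 lay outside the Ku70 range. The difference in means, 0.0107 percentage points, gave a two-sided exact permutation p of 0.4 (n = 3 each), and it was 0.00212 percentage points without MuPOX00158 replicate 2. Within the amylase reads, POX09352 supplied 4.27, 4.05 and 7.40% in Ku70 and 10.03, 9.45 and 13.8% in MuPOX00158. Its part was higher in every MuPOX00158 library, while POX01356 and POX02412 still made up most of the amylase reads in all 6.

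Most genes listed for enzymes of plant cell wall breakdown fell, and no amylase gene passed the test in that direction. Cellulases cut cellulose, xylanases cut the main chain of xylan and beta-glucosidases split cellobiose into glucose. In the same fit 9 of 10 cellulase genes, 7 of 7 listed xylanase genes and 4 of 7 beta-glucosidase genes fell, and none of 3 amylase genes did. Over all genes tested 18.6% fell, so none of 3 is not set apart from the background. The median log2 fold changes were -1.90, -2.60, -0.65 and 0.91 in that order. The amylase median is the value of POX01356, which did not pass the test. Without MuPOX00158 replicate 2 the log2 fold change of POX01356 was 0.10, so the amylase median is no sign of a rise of the group. A rise was not particular to the amylase genes, since 1 beta-glucosidase gene also rose. The largest log2 fold change among the beta-glucosidase genes was 1.86. Summed amylase reads were 208 ± 53.4 CPM in Ku70 and 305 ± 154 CPM in the deletion strain, while summed cellulase reads were 42646 ± 4558 and 10515 ± 2971 CPM (SD over 3 libraries). Relative to the cellulase sum, the amylase sum had a log2 ratio of -7.33, -7.89 and -7.90 in Ku70 replicates 1, 2 and 3 and of -5.13, -4.83 and -5.57 in MuPOX00158. The libraries of the strains were well apart, and the ratio was 5.77-fold higher on average in MuPOX00158. It was 7.83-fold higher relative to the xylanase sum and 2.52-fold higher relative to the beta-glucosidase sum, again without overlap. Each of the 3 ratios gave a two-sided exact permutation p of 0.1 (adjusted over the 3 ratios 0.1), the smallest possible here. Without MuPOX00158 replicate 1, MuPOX00158 replicate 3 or Ku70 replicate 3 the count of beta-glucosidase genes that fell was 2. For cellulase genes it was 7 of 10 without MuPOX00158 replicate 1 or MuPOX00158 replicate 3, and 10 without MuPOX00158 replicate 2. The ratios mix changes of both groups, and the amylase sum itself overlapped between strains.

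**Figure D4:**
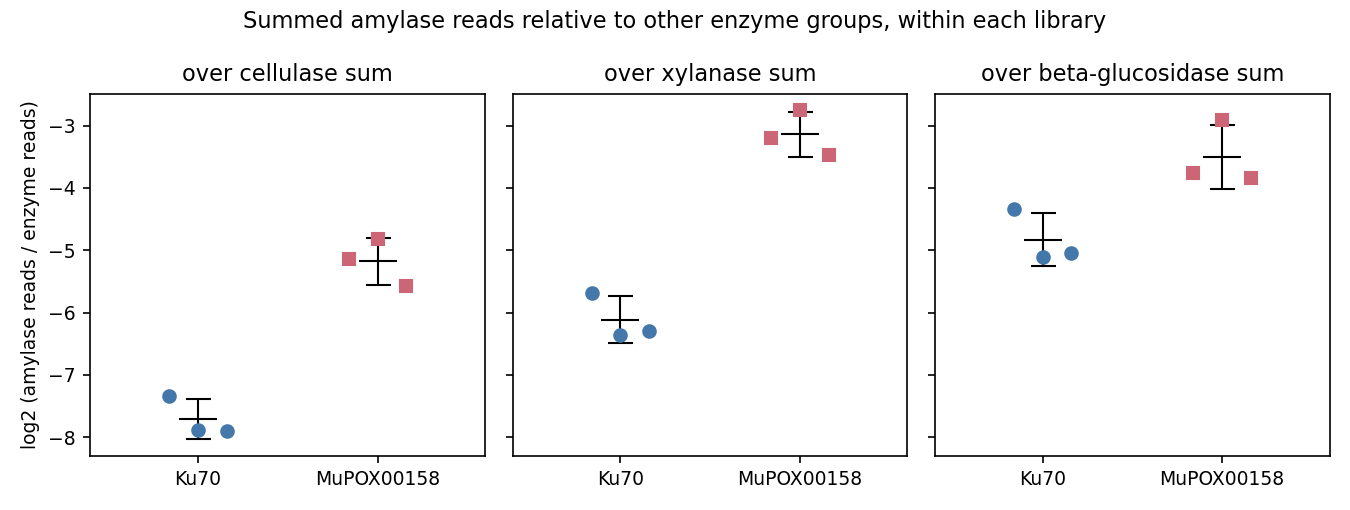
Log2 ratio of summed amylase reads to summed cellulase, xylanase and beta-glucosidase reads in each library of Ku70 (circles) and MuPOX00158 (squares), with the mean and SD of 3 libraries as bars. In each panel all MuPOX00158 libraries lie above all Ku70 libraries, by 2.53, 2.97 and 1.33 on average.

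The genes most like each member were sought over the 6 libraries by the root mean square difference between profiles of log2 CPM, each centred on its own mean. None of the 12 genes found carries a name in the sources used here. For POX02412 the nearest was POX06585, with a difference of 0.0238, followed by POX01485 (0.0720) and POX04732 (0.0733). For POX09352 they were POX03968 (0.181), POX03947 (0.205) and POX05370 (0.212), all of which rose, an outcome that the choice itself favoured. POX05370 was the only one of these above 10 CPM in Ku70, at 14.7 ± 3.28 CPM against 44.0 ± 19.1 CPM in the deletion strain (SD over 3 libraries; edgeR adjusted p = 0.00736 for a log2 fold change of 1.58). For POX01356 they were POX03181 (0.194), POX03288 (0.273) and POX03284 (0.307), and for POX03890 they were POX04451 (0.199), POX03074 (0.211) and POX08116 (0.229), none past the test. The nearest to the threshold was POX03284, with an edgeR adjusted p of 0.0502, or 0.0159 in DESeq2. POX03284 shared the high value of MuPOX00158 replicate 2, with 43.6, 118 and 42.9 CPM in MuPOX00158 replicates 1, 2 and 3 against 24.5 to 36.0 CPM in Ku70. Several rest on few reads, since POX03181, POX03288, POX03968, POX03947 and POX04732 averaged under 10 CPM in both strains. Profiles were compared across both strains, so each choice favoured genes with a strain difference like that of the member. The calls and p-values of the chosen genes are therefore a description and no separate evidence of a change.

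No member was among the nearest 3 of another. POX02412 ranked 119 of 7756 genes by likeness to POX03890, but POX03890 ranked 3314 by likeness to POX02412. POX09352 ranked 193 by likeness to POX01356, and POX01356 ranked 462 by likeness to POX09352. POX03890 ranked 4862 by likeness to POX09352. Since the profiles span both strains, these ranks follow in part from the fold changes given above.

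Some genes with neighbouring identifiers changed by far more than the members. Consecutive identifiers are only a hint that genes lie side by side, since no positions for these identifiers were used here. Within 5 identifiers on either side, 26 neighbours of the 4 genes were tested, of which 6 rose and 9 fell (5 fell without MuPOX00158 replicate 3), against 18.6% of all genes tested in each direction. POX09352, the amylase gene that rose, stood next to genes that fell: of its 6 tested neighbours 5 fell and none rose (3 fell without MuPOX00158 replicate 3). POX09355 averaged 1025 ± 237 CPM in Ku70 and 23.3 ± 5.31 CPM in MuPOX00158 (SD over 3 libraries; edgeR adjusted p = 6.72e-06 for a log2 fold change of -5.46, SE 0.29). For POX09354 the log2 fold change was -6.69 (SE 0.38; adjusted p = 9.17e-06 in edgeR). POX09357 also fell (log2 fold change -1.88, edgeR adjusted p = 0.0172), but not without MuPOX00158 replicate 3 (0.0655) or Ku70 replicate 2 (0.0543), and leaving out MuPOX00158 replicate 2 gave a log2 fold change of -2.64. The rise of POX09352 thus ran against its tested identifier neighbours, all 6 of which had negative fold changes.

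POX02412, which did not pass the test, lay near strong changes in both directions. POX02414 averaged 14.4 ± 3.79 CPM in Ku70 and 483 ± 118 CPM in MuPOX00158 (SD over 3 libraries; edgeR adjusted p = 1.27e-05 for a log2 fold change of 5.06) and POX02415 rose by a log2 fold change of 3.58, while POX02407 had one of -2.42. Next to the regulator gene, POX03889 averaged 7.58 ± 2.48 CPM in Ku70 and 54.4 ± 37.7 CPM in MuPOX00158 (edgeR adjusted p = 0.00475 for a log2 fold change of 2.83, SE 0.54), and without MuPOX00158 replicate 2 the log2 value was 2.12. POX03886 rose with a log2 fold change of 1.04 and POX03888 fell with one of -1.21, a call that was lost with the letter as a block (edgeR adjusted p = 0.0545). Around POX01356, POX01354 was the 1 gene that changed by 2-fold or more, with a log2 fold change of -1.13 (edgeR adjusted p = 0.00749). None of these neighbours carries a name in the sources used here.

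**Figure D5:**
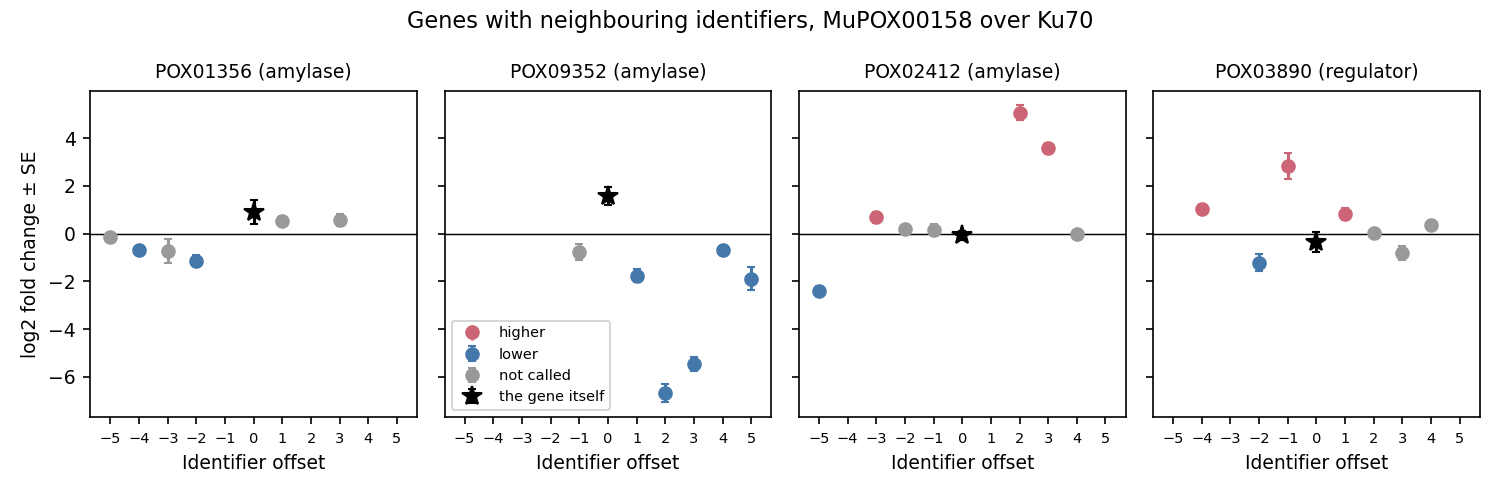
Log2 fold change (MuPOX00158 over Ku70, bars are SE of the edgeR fit on 3 libraries per strain) of tested genes within 5 identifiers of each member, which is drawn as a star at offset 0. Red genes rose, blue genes fell and grey genes did not pass, and the 5 blue points beside POX09352 contrast with its own value of 1.57.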

How the data were processed

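The authors deposited 1 table per library with an expected count and an FPKM value per gene, per the file headers. The submitters' processing notes name BWA 0.7.10-r789, DESeq2, RSEM 1.2.12 and Bowtie2 2.1.0 without roles. For the build, annotation and strand setting, nothing is given in the sources used here. Genes without reads are left out of the tables, so a missing gene was taken as 0 reads. A RefSeq table of the species shares no identifier with the files and was not used, so no position or sequence is given.

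Rounded expected counts entered edgeR 4.0.16, run in R 4.3.3 (filterByExpr with a minimum count of 10 and minimum total of 15, TMM, quasi-likelihood test, Benjamini-Hochberg over 7757 genes, threshold 0.05). The test was checked on simulated data with less spread between libraries than the members showed, and with fewer changed genes than were called here. That check does not cover genes as variable as the members. SE is the log2 fold change over the square root of F, and 95% intervals use the fit's degrees of freedom. Ratios within a library had 0.5 reads added to each count and were tested with exact permutation in scipy 1.17.1. Alternatives were other scalings and filters, DESeq2 1.42.0, limma 3.58.1 on log2(FPKM + 1) and log2(FPKM + 0.1), a letter block and each library left out.

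Groups follow the strain label, and replicate numbers follow the order of deposition. Deviations of libraries with the same title letter from their strain means correlated at 0.15 (F), 0.22 (S) and 0.16 (T) over the tested genes. A fit with the letter as a block was therefore run as an alternative. The main fit and the permutation tests did not use the letters. The labels do not say what a letter stands for. Named genes were POX00158, POX08415, the 4 members, the 3 genes of most like profile per member, and up to 3 neighbours within 5 identifiers that passed the test with a change of 2-fold or more. The members, the lists and the tests were chosen with earlier results of these data known. Enzyme lists rest on identifiers recalled from published work. An eighth xylanase identifier, POX00055, was listed in no library, and other starch genes had no identifier to look up.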

Additional observations from a re-analysis of the deposited data

How the results depend on the processing

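Each member was computed under 16 alternatives, and 61 of the 64 values kept their direction and their side of the threshold. POX09352 passed in all 16, with log2 fold changes of 1.25 to 1.83 and adjusted p of 0.000532 (DESeq2) to 0.0342 (edgeR without MuPOX00158 replicate 2). The other 3 members passed in none. POX01356 ranged from 0.10 to 1.28 with a library left out. POX02412 ranged from -0.18 to 0.052 and turned positive without MuPOX00158 replicate 3 (0.052) and without Ku70 replicate 1 (0.040). POX03890 ranged from -0.64 to 0.0089, the latter without Ku70 replicate 1. Neither fit passed in these reversals. The replicate block with the title letter changed no call of a member, and gave 2909 changed genes against 2888. Leaving out 1 library gave 1984 to 3323. The median of all genes shifted by at most 0.096 on the log2 scale, with limma on log2(FPKM + 0.1). With a window of 10 identifiers, 18 neighbours fell in place of 9, as more genes were tested (47 in place of 26), and 8 rose in place of 6. With 1 library left out, 5 to 11 fell and 4 to 6 rose. Of the other named genes, POX03284 gained a call in 7 alternatives, POX03888 lost its call in 6 and POX09357 in 2. The ratios kept their direction on FPKM and with any library left out. Counts of 19 to 149 reads limit the precision for POX09352, and of 27 to 86 for POX03890.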

Other observations

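In the wider window of 10 identifiers around POX09352, 14 neighbours were tested, of which 11 fell and none rose, where 18.6% of all tested genes fell and 18.6% rose. They include POX09358, at 7954 ± 2423 CPM in Ku70 and 116 ± 78.8 CPM in MuPOX00158 (SD over 3 libraries). Its log2 fold change was -6.10 (edgeR adjusted p = 0.000216), and that of POX09361 was -5.56. The tested gene farthest along, POX09362, had one of -0.45 and did not pass the test. Around the regulator gene POX03890, 5 of 11 tested neighbours in this window rose and 1 fell.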
